A study of Mus musculus with 9 samples.

Results

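Nppa and Nppb, the genes for atrial and brain natriuretic peptide, were followed through 9 mouse ventricle samples in which phosphoinositide 3-kinase (PI3K) had been turned up, turned down or left alone. All probe sets annotated to either gene were taken from the deposited array table. There was 1 for each, so that 2 of 12488 probe sets and 2 of the 8252 genes named on the array are described. The myosin light chains Myl4 and Myl7, which are made mainly in atrial muscle in the adult heart, were read on the same arrays as a guide to atrial tissue.

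Each array held RNA from 1 mouse, and each group had 3 mice. The caPI3K mice expressed a constitutively active PI3K from a transgene and, according to the labels, had hearts 20% larger than wild type littermates. Mice of the dnPI3K group carried dominant negative PI3K and had hearts 17% smaller, and NTG mice were non-transgenic controls for both. The source label is ventricle only for all 9 samples. The labels do not state which promoter drives each transgene, nor age, sex or strain. By the animal numbers in the titles, replicates 1 and 2 of caPI3K and NTG come from the same run of numbers and replicate 3 of both from a later one. The dnPI3K animals have lower numbers, replicate 1 apart from replicates 2 and 3, and no other group shares them, so that the numbers cannot be told apart from the genotype.

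Natriuretic peptides are hormones of heart muscle that lower blood pressure and blood volume. Nppa is made by atrial myocytes throughout life and by ventricular myocytes mainly before birth, and both genes are widely used as markers of ventricular load and hypertrophy in adults. The prohormones are cut by the proteases corin and furin. The mature peptides act through the guanylyl cyclase receptor encoded by Npr1, which makes cyclic GMP, and are cleared by the receptor encoded by Npr3. PI3K passes signals from insulin-type receptors to the kinase Akt, a pathway of heart growth.

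Nppb and Nppa are neighbours on mouse chromosome 4, on the same strand. In the RefSeq annotation of GRCm38.p6, Nppb spans 147985786 to 147987205 and Nppa 148000722 to 148002074, with 13516 bases between them. The 250 bases before the start of each gene in the RefSeq promoter table are shown because both peptides differed between the transgenic groups, and because the motifs in them differ. Capitals mark exact matches to the motifs searched. For Nppb the promoter table places the start inside the span listed above. The windows are chr4:147985650-147985899 for Nppb and chr4:148000472-148000721 for Nppa, both on the plus strand.
Nppb: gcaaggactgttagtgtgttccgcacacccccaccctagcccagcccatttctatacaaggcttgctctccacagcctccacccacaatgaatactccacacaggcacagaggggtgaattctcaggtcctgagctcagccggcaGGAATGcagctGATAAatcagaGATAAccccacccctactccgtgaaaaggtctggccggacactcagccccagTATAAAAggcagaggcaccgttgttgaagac
Nppa: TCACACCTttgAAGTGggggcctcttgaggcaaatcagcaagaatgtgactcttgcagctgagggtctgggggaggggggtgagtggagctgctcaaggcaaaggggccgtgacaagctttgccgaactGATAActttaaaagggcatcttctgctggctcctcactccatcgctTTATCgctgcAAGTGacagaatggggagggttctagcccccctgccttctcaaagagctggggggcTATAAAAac

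Both windows held a TATA box (TATAAAA, searched on the forward strand), which 3.02% of 32851 promoters of the same length held. It lay at -31 to -25 from the listed start in Nppb and at -9 to -3 in Nppa. Each also held 2 matches to the GATA motif (GATAA on either strand), present in 22.6% of promoters. The NKX2-5 element (AAGTG on either strand, 40.7% of promoters) matched 2 times in Nppa and 0 times in Nppb, and the T-box element (AGGTGTGA on either strand, 1.12%) matched 1 time in Nppa and 0 times in Nppb. The M-CAT element of TEAD factors (CATTCC on either strand, 12.6%) matched 1 time in Nppb and 0 times in Nppa. Neither window held an AP-1 site (TGANTCA, 6.75% of promoters), a FOXO site (GTAAACA, 3.17%) or a CArG box, searched by its name (1.47%), each on both strands. No match overlapped another. A match is a string of letters in this window and says nothing of binding in these hearts.

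Nppa read high in all dnPI3K hearts and varied widely in the others. Its normalized intensity was 1694, 1450 and 3527 on the caPI3K arrays (replicates 1, 2 and 3), with a mean of 2224 ± 1135 (SD, n = 3). On the NTG arrays it was 6840, 3744 and 1553 (4046 ± 2657, n = 3), and on the dnPI3K arrays 11231, 8414 and 9192 (9612 ± 1454, n = 3). Every dnPI3K array lay above every other array, while the caPI3K and NTG arrays overlapped. Of all probe sets tested, 9.75% had the dnPI3K arrays above the NTG arrays and 12.1% had them above the caPI3K arrays. The coefficient of variation was 51.0% in caPI3K, 65.7% in NTG and 15.1% in dnPI3K.

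Nppb followed the same order of group means with smaller steps. It read 9131, 6242 and 9022 on the caPI3K arrays (8132 ± 1637, n = 3) and 7333, 9392 and 8957 on the NTG arrays (8561 ± 1085, n = 3). The dnPI3K arrays read 12219, 12172 and 12904 (12432 ± 410, n = 3). Again the dnPI3K arrays lay above the other 6, and the caPI3K and NTG arrays overlapped. Coefficients of variation were 20.1%, 12.7% and 3.30% in caPI3K, NTG and dnPI3K. Intensities of different probe sets are not on a common scale, so the levels of Nppa and Nppb are compared across arrays and not with each other.

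**Figure D1:**
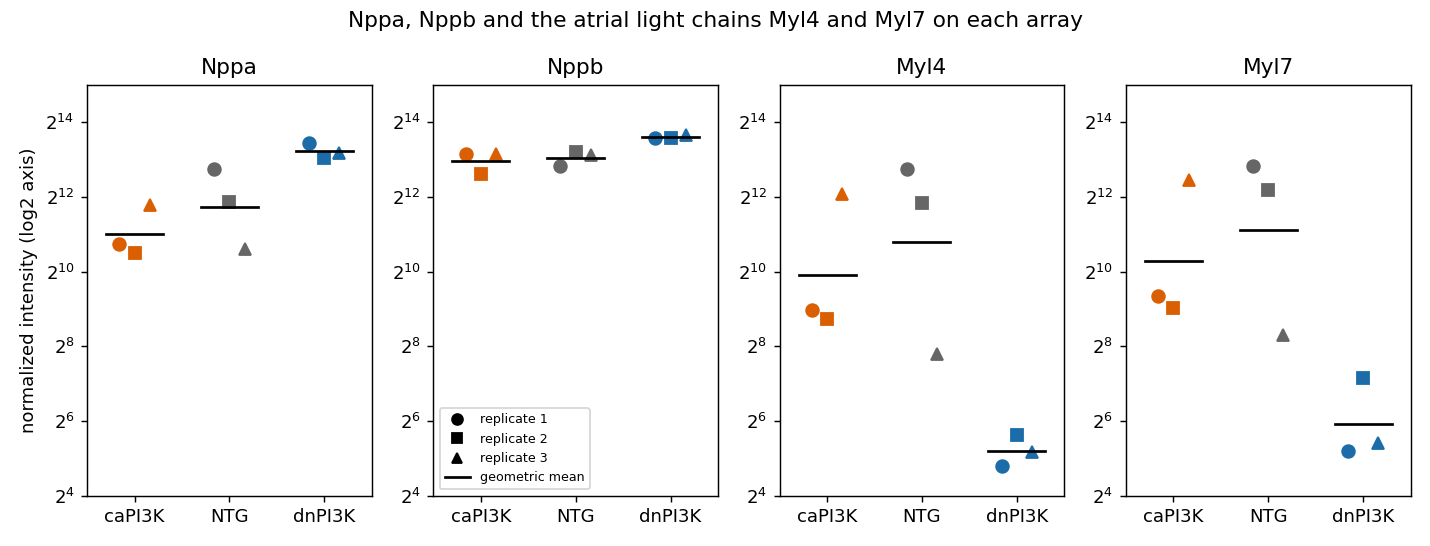
Normalized intensity (log2 axis) of Nppa, Nppb, Myl4 and Myl7 on each of the 9 arrays, by group, with 1 symbol per replicate and a line at the geometric mean. Both peptides sit highest on the 3 dnPI3K arrays, where Myl4 and Myl7 sit lowest, and Nppa spreads in caPI3K and NTG as the light chains do.

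The comparison of active with dominant negative PI3K was the one in which both peptides passed the test. Nppa was 4.65-fold lower in caPI3K than in dnPI3K hearts (log2 fold change -2.22 ± 0.461 (SE), 95% interval -3.23 to -1.20, limma adjusted p = 0.0282). Nppb was 1.55-fold lower (-0.63 ± 0.146, interval -0.96 to -0.31, adjusted p = 0.0428). In this comparison 3.24% of the 10645 probe sets tested were called at an adjusted p of 0.05, and 1.54% were called lower in caPI3K. By size of fold change Nppa ranked 21 and Nppb 1332 of 10645. In both genes the 3 caPI3K arrays all lay below the 3 dnPI3K arrays, which also held for 12.1% of probe sets. An exact two-sided permutation test of the 6 arrays gave p = 0.1 for each gene, the smallest value that 3 against 3 allows. Both calls depended on single arrays. Nppa kept its call without any 1 NTG array or caPI3K replicate 3, and its adjusted p rose to 0.0970 without caPI3K replicate 1, 0.119 without caPI3K replicate 2, and 0.0855, 0.0772 and 0.0756 without dnPI3K replicates 1, 2 and 3. Nppb kept its call without NTG replicate 1 or NTG replicate 3, and its adjusted p lay between 0.0551 and 0.125 without any 1 of NTG replicate 2, the 3 caPI3K arrays and the 3 dnPI3K arrays.

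**Figure D2:**
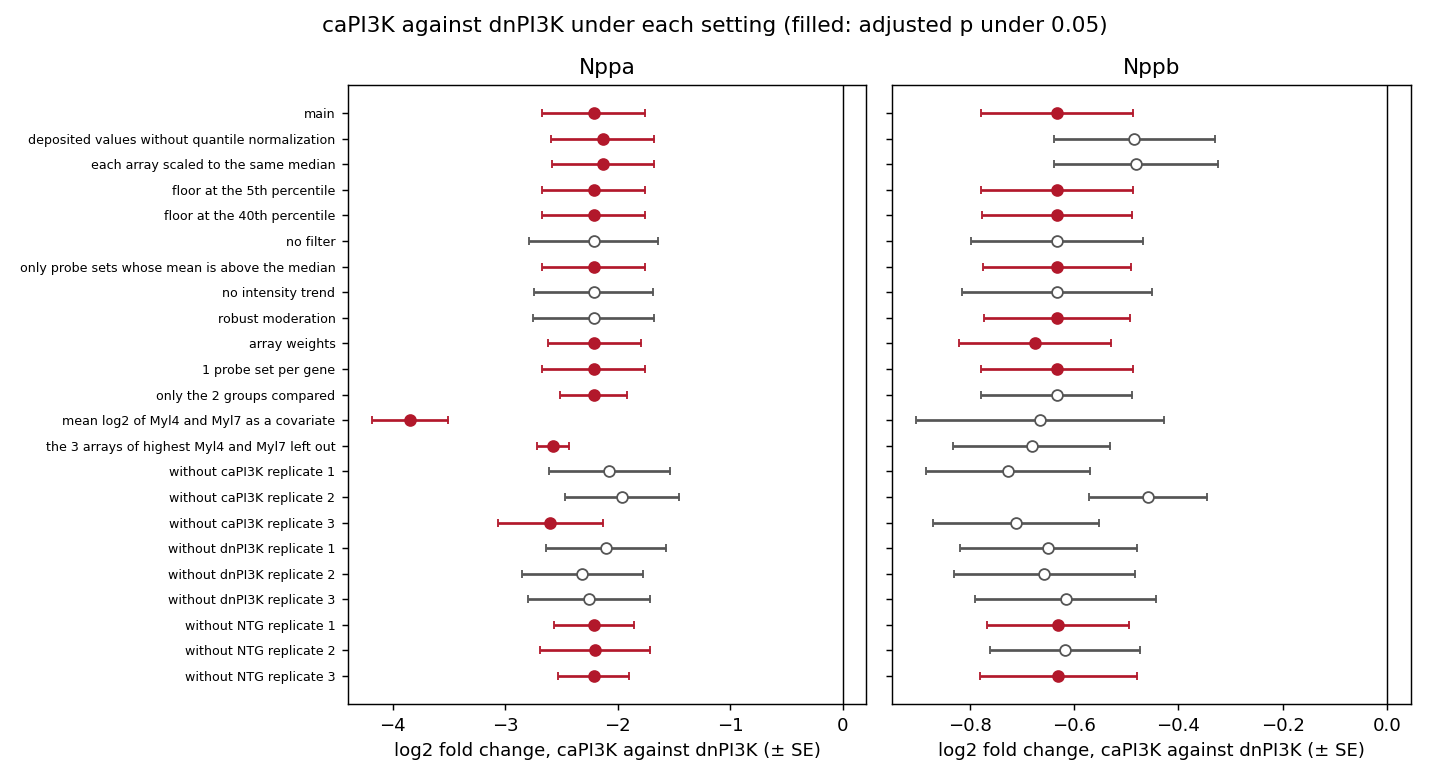
Log2 fold change of Nppa and Nppb in caPI3K against dnPI3K with its SE, in the reported fit and 22 alternative settings, with filled points where the adjusted p was under 0.05. All values are below 0 in both genes, and 14 of 22 settings for Nppa and 8 of 22 for Nppb pass.

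Between dnPI3K and NTG hearts neither peptide passed, although every dnPI3K array read higher. The log2 fold change was 1.48 ± 0.461 for Nppa (95% interval 0.47 to 2.5, adjusted p = 0.148) and 0.55 ± 0.146 for Nppb (0.22 to 0.87, adjusted p = 0.0949). Here 2.18% of probe sets were called, and 9.75% had all dnPI3K arrays above all NTG arrays as these 2 genes had. Unadjusted p-values were 0.00845 for Nppa and 0.00341 for Nppb. Without NTG replicate 1, which had the highest Nppa of its group, Nppa passed (1.98, adjusted p = 0.0478). Without NTG replicate 3, which had the lowest, its change was 0.917 (adjusted p = 0.234). Without caPI3K replicate 2 Nppb passed (0.55, adjusted p = 0.0321), although that array belongs to neither group compared. Normalization, floor, filter and the shared estimate of spread were all redone in that fit, and their parts were not tested.

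Between caPI3K and NTG hearts neither gene passed. Nppa differed by -0.73 ± 0.461 (95% interval -1.75 to 0.28, adjusted p = 0.809) and Nppb by -0.09 ± 0.146 (-0.41 to 0.23, adjusted p = 0.941). Of all probe sets, 0.0845% were called. The 3 comparisons share their groups, so their values are not independent of each other.

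Over the 3 groups together, limma's F test gave an adjusted p of 0.0608 for Nppa and 0.0709 for Nppb. An exact permutation test of the F statistic over all 1680 assignments of the 9 arrays gave p = 0.0464 for Nppa and 0.025 for Nppb. After Benjamini-Hochberg adjustment over the 5 quantities tested this way, both were 0.0774. The order of the group means was caPI3K, NTG and dnPI3K from low to high for both genes, and neither neighbouring pair in that order passed the test.

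The relation of the 2 peptides was also followed from array to array. Taken as log2 Nppa minus log2 Nppb, the difference was -2.43, -2.11 and -1.36 on the caPI3K arrays and -0.12, -0.53 and -0.49 on the dnPI3K arrays, without overlap. NTG arrays read -0.10, -1.33 and -2.53 and covered the whole range of the other groups. The mean of caPI3K minus that of dnPI3K was -1.58, with an exact permutation p of 0.1, again the smallest possible, and over the 3 groups the exact F test gave p = 0.146. Across the 9 arrays the log2 values of Nppa and Nppb had a Pearson r of 0.688, while their deviations from the group means had an r of -0.02. Both are descriptions over arrays of 3 groups, and by the first measure Nppb ranked 347 among 7484 genes in its likeness to Nppa. The r of deviations pools groups that differed. In caPI3K the array of lowest Nppa (replicate 2) also had the lowest Nppb, and in NTG the array of highest Nppa (replicate 1) had the lowest Nppb. With 3 arrays per group, how the peptides vary within a group was not tested.

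Within the caPI3K and NTG groups, arrays with strong atrial light chain signal also had the most Nppa. Myl4 read 498.6, 421.4 and 4304 on the caPI3K arrays, 6896, 3669 and 222.7 on the NTG arrays, and 27.9, 49.7 and 36.1 on the dnPI3K arrays. Myl7 read 652.8, 525.2 and 5579, then 7253, 4703 and 315.4, then 36.5, 142.3 and 42.2 in the same order. NTG replicates 1 and 2 and caPI3K replicate 3 thus carried the light chains at a far higher level than the other 6 arrays. Their Nppa was 6840, 3744 and 3527, against 1450 to 1694 on the other 3 caPI3K and NTG arrays, with no value between. Nppb showed no such split, with 7333, 9392 and 9022 on the first 3 and 6242 to 9131 on the second 3. A second Myl4 probe set had the same order of groups within a narrower range (381.8 to 773.8 in caPI3K and NTG, 173.6 to 200.5 in dnPI3K).

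The mean log2 of Myl4 and Myl7 was 9.16, 8.88 and 12.26 on the caPI3K arrays, 12.79, 12.02 and 8.05 on the NTG arrays and 4.997, 6.39 and 5.29 on the dnPI3K arrays. These values fall into 3 separate clusters of 3 arrays, so that the relation of the peptides to the light chains cannot be tested across samples. In dnPI3K hearts the relation ran the other way between groups: the light chains were lowest and both peptides highest. Myl4 was lower in dnPI3K than in NTG by -5.48 ± 1.15 (adjusted p = 0.0400) and Myl7 by -5.19 ± 1.16 (adjusted p = 0.0476), and both calls were kept without NTG replicate 3 or caPI3K replicate 3 only, with adjusted p-values of 0.0540 to 0.156 without any 1 of the other arrays. Dim values near the floor of 35.3 set the size of these changes.

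**Figure D3:**
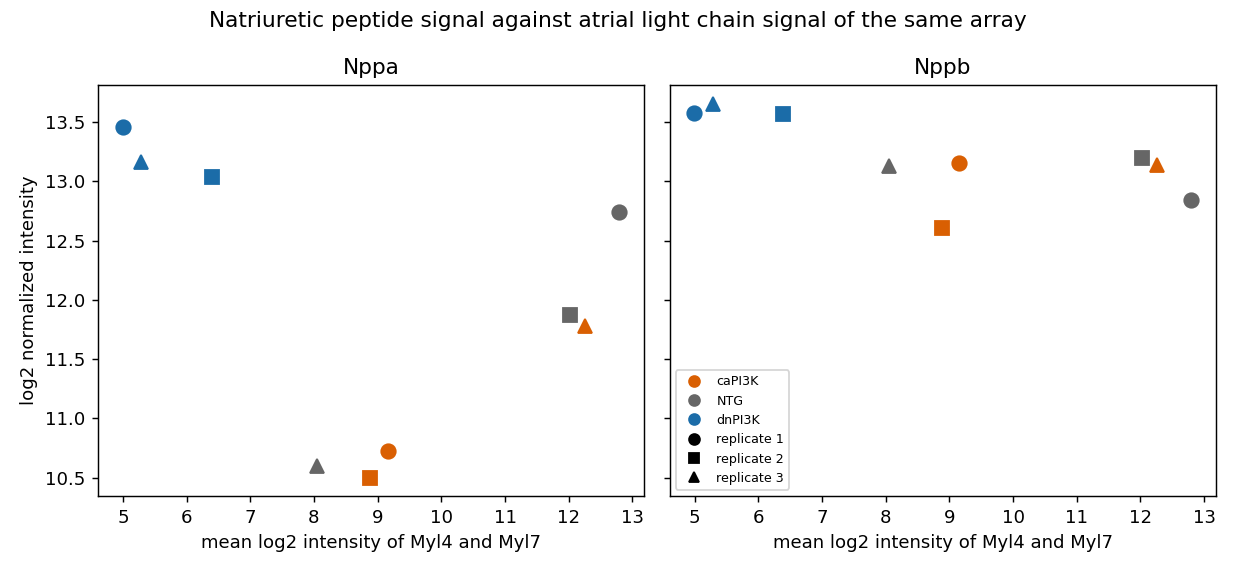
Log2 normalized intensity of Nppa (left) and Nppb (right) against the mean log2 intensity of Myl4 and Myl7 on the same array, with colours for groups and symbols for replicates. Among caPI3K and NTG arrays the 3 with a light chain mean of 12.02 to 12.79 have the highest Nppa, Nppb lies level, and the 3 dnPI3K arrays stand apart at the upper left in both panels.

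With the 3 arrays of highest light chain signal left out, which kept 1 NTG array, Nppa was 2.59 higher in dnPI3K than in NTG (adjusted p = 0.00873) and changed by -2.58 in caPI3K against dnPI3K (adjusted p = 0.000536). Its difference between caPI3K and NTG was then 0.01 (adjusted p = 0.996). The lone NTG array is assumed to vary like the other groups. Nppb differed by -0.68 between caPI3K and dnPI3K with an adjusted p of 0.0666 in that fit. The arrays left out were also those of highest Nppa in caPI3K and NTG, and no dnPI3K array was among them, so that the gap to dnPI3K had to widen. The part of atrial tissue in the values of Nppa was not tested. In whole tissue RNA, fewer cells of a type and less RNA per cell cannot be told apart.

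The animal numbers set the caPI3K and NTG mice apart as well. Between replicates 1 and 2 of either group, from the earlier run of numbers, Nppa differed by -1.69 (log2, caPI3K against NTG), and between replicates 3, from the later run, by 1.18. The difference between these was 2.87 ± 0.451 (adjusted p = 0.251 over all probe sets). Myl4 went from -3.46 to 4.27 and Myl7 from -3.32 to 4.14. Nppb was at -0.14 and 0.01, a difference of 0.15 ± 0.316 (adjusted p = 0.957). The sources used here do not say what the numbers stand for.

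Of the 18 atrial markers listed, 13 were measured and tested. Summed over these, intensity ranged from 3352 to 13137 in caPI3K, 2817.02 to 18183 in NTG and 2513 to 2860 in dnPI3K hearts. The sums include the guide genes Myl4 and Myl7, which read 6896 and 7253 on NTG replicate 1, so they are not separate from the guide. As a description that rests largely on the same split of the caPI3K and NTG arrays, deviations from the group means had an r with those of Nppa above 0.8 for 4 of the 13, Myl4 (0.949), Myl7 (0.858), the secreted protein gene Dkk3 (0.977) and the lipid transfer gene Stard10 (0.965), against 1.86% of all genes. For Nppb 0 of 13 did, against 1.22% of all genes. Sarcolipin (Sln), a defining atrial gene, read 24.4 to 92.5 over the 9 arrays, near the floor, and its r with Nppa was -0.25. Bmp10, an atrial growth factor, read 13.5 to 108.3. In the comparison of dnPI3K with NTG, 2 of the 13 fell and 0 rose, against 91 and 75 of all 7484 genes, and those 2 were Myl4 and Myl7, the genes taken as the guide. In the other comparisons 0 passed. Ventricular markers summed to 158201 to 169730 in caPI3K, 157130 to 170526 in NTG and 151262 to 161304 in dnPI3K hearts, and these ranges overlapped. Myl2, Myl3, Mb and Tnni3, with group means of 30160 or more, made up most of each sum. Kcnd2, of the same list, read 48.5 to 188.9 over the 9 arrays. In dnPI3K against NTG, 7 of 8 tested lay below 0 and 1 above, against 3667 and 3817 of all 7484 genes. Of the 8, Fhl2 fell in dnPI3K (-0.57, adjusted p = 0.00723).

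Summed markers of other muscle types differed between the groups too. Skeletal muscle markers summed to 15421 to 22230 in caPI3K, 8794 to 12323 in NTG and 4003 to 4892 in dnPI3K hearts. Myl1 (group means 10919, 4942 and 1164) and Casq1 (4966, 2751 and 772) made up most of the caPI3K and NTG sums. The order is therefore not that of the whole list, and Pvalb, Mylpf and Myh4 had their highest group mean in NTG. Of 9 tested, 2 (Myl1 and Casq1) were higher in caPI3K than in dnPI3K and 0 lower, against 139 and 120 of 7484 genes, and in caPI3K against NTG 0 passed, with 4 above 0 and 5 below. The smooth muscle sum ran in the opposite order, from 1926 to 2424 in caPI3K through 2504 to 2987 in NTG to 3895 to 4709 in dnPI3K. Acta2 (group means 868, 1272 and 2555) was its largest part. Myh11 and Tagln had the same order, and Smtn did not (631.5, 577.4 and 666.2). Of 4 tested, 2 (Myh11 and Acta2) were lower in caPI3K than in dnPI3K and 0 higher, against 120 and 139 of 7484 genes. Sums for conduction system markers (2316 to 2965, 2346 to 2590 and 2457 to 2746) overlapped. An 18S ribosomal RNA control probe set read 8097, 3303 and 6777 on the dnPI3K arrays and 461.8 to 670.6 on the other 6. The geometric mean of 18 spike-in control probe sets was 254.7 to 372.3 on the dnPI3K arrays and 431.8 to 612.04 on the others, again without overlap. The part of these differences in the values of Nppa and Nppb was not tested.

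None of the measured receptors passed in any comparison. Npr1, the signalling receptor of both peptides, was near or below the floor on all arrays (2.29 to 53.4), so its probe set says little. Npr2 was not analysed here. Npr3, the clearance receptor, read 262.4, 403.2 and 410.1 in caPI3K, 401.3, 342.4 and 259.4 in NTG, and 490.5, 433.3 and 456.6 in dnPI3K by its brightest probe set. All dnPI3K arrays lay above the others, as they did above NTG for 9.75% and above caPI3K for 12.1% of probe sets. For Npr3 the difference of dnPI3K from NTG was 0.48 ± 0.223 (adjusted p = 0.347). Its other 2 probe sets gave -0.01 and -0.25 for the same comparison. Nppc, the gene for C-type natriuretic peptide of blood vessels and cartilage, read 22.5 to 71.7, near the floor, and also did not pass (0.21 ± 0.360 for dnPI3K against NTG).

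Genes that process or break down the prohormones were measured for 11 of 11 listed and tested for 10, and 0 passed in any comparison by their brightest probe sets. Their median log2 fold changes were -0.10 (caPI3K to NTG), -0.06 (dnPI3K to NTG) and -0.01 (caPI3K to dnPI3K). Corin, the protease of heart muscle that cuts the Nppa prohormone, read 1119, 1114 and 1038 in caPI3K, 1113, 1157 and 1308 in NTG, and 993.5, 1844 and 1525 in dnPI3K. It differed by -0.37 ± 0.188 between caPI3K and dnPI3K (adjusted p = 0.365), with overlapping arrays. Furin, which cuts the Nppb prohormone, stayed within 1245 to 1588 on all 9 arrays (-0.10 ± 0.105 for caPI3K against dnPI3K, adjusted p = 0.700). Dpp4, a peptidase that trims brain natriuretic peptide, was -1.10 ± 0.408 in the same comparison (adjusted p = 0.197). Chga, which encodes the granule protein chromogranin A, was 0.88 ± 0.261 (adjusted p = 0.107). Pam, a membrane protein of atrial granules, was 0.16 ± 0.501 (adjusted p = 0.922). Ide, a peptidase that breaks down insulin and natriuretic peptides, gave 0.15 by its brightest probe set and 1.28 ± 0.221 by another (adjusted p = 0.0117), so its probe sets disagreed.

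**Figure D4:**
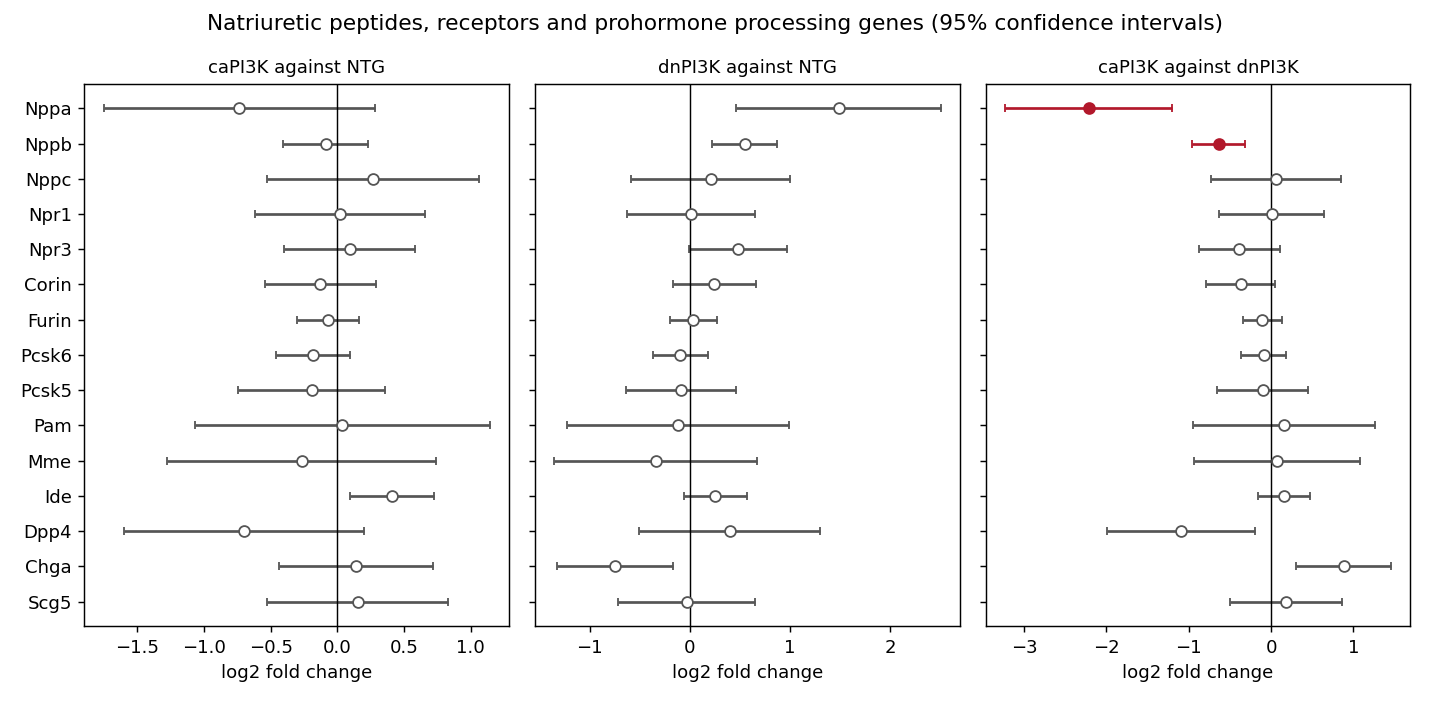
Log2 fold changes with 95% confidence intervals for the natriuretic peptides, their receptors and prohormone processing genes in the 3 comparisons, with filled red points where the adjusted p was under 0.05. Only Nppa and Nppb pass, and only for caPI3K against dnPI3K.

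Of 18 genes of cyclic GMP signalling, the step after the receptor, 9 were measured and 7 tested, and 0 passed. The closest was Pde9a, a phosphodiesterase that removes cyclic GMP, at -1.68 ± 0.417 in dnPI3K against NTG (adjusted p = 0.0741). Its dnPI3K arrays read 26.4 to 29.5, under the floor, against 70.7 to 199.7 in NTG.

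Transcription factors reported to act on Nppa or Nppb promoters were listed as 35 genes, of which 25 were tested. Between dnPI3K and NTG, 3 fell and 0 rose, against 91 and 75 of all 7484 genes. Mef2c, a muscle transcription factor, read 474.3, 378.8 and 365.1 in dnPI3K, 738.6, 1233 and 937.3 in NTG and 978.6, 926.8 and 1064 in caPI3K. It fell by 1.23 ± 0.183 (adjusted p = 0.00752), and the call held with any 1 array left out. Its dnPI3K arrays all lay below its NTG arrays, as for 8.97% of probe sets. Of its other 3 probe sets, 1 also passed (-1.62, adjusted p = 0.0228), and the remaining ones gave -1.13 (adjusted p = 0.0811) and 0.08 (adjusted p = 0.894). Rest, a repressor that binds Nppa and Nppb control elements, fell by 1.24 ± 0.260 (adjusted p = 0.0394), a call kept only without caPI3K replicate 3 or dnPI3K replicate 1, with adjusted p-values of 0.0508 to 0.123 otherwise. Nfatc3, a factor activated by calcineurin, fell by 0.97 ± 0.171 (adjusted p = 0.0185) and did not pass without dnPI3K replicate 1 or 2 or NTG replicate 1 or 2 (adjusted p = 0.0562 to 0.0668).

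Between caPI3K and dnPI3K, where Nppa and Nppb passed, 2 of the 25 factors were higher in caPI3K and 1 was lower, against 139 and 120 of all genes. Mef2c was higher by 1.29 ± 0.183 (adjusted p = 0.00403), with any 1 array left out too. Nfatc3 was higher by 0.91 ± 0.171 (adjusted p = 0.0175), but not past the threshold without caPI3K replicate 1 or 2 or dnPI3K replicate 1 or 2 (adjusted p = 0.0539 to 0.0923). Foxo3, which Akt holds out of the nucleus, was lower by -1.06 ± 0.252 (adjusted p = 0.0489), and passed only without NTG replicate 1 or 3 (0.0599 to 0.162 otherwise). With the mean of Myl4 and Myl7 as a covariate its value was -0.28 (adjusted p = 0.741). That value is an extrapolation, because the covariate was 8.88 to 12.26 on caPI3K and 4.997 to 6.39 on dnPI3K arrays, without overlap. The median over the list was 0.15, against 0.000195 over all genes. Between caPI3K and NTG 0 of 25 passed. Tead1, which binds M-CAT elements, differed by 1.64 in caPI3K against NTG (adjusted p = 0.287) and by 1.40 in dnPI3K against NTG (adjusted p = 0.0974). Neither difference passed, and its NTG arrays read 28.7 to 93.1, near the floor. Nkx2-5 differed by 0.10 in dnPI3K against NTG (adjusted p = 0.783).

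Fetal and hypertrophy genes, with which natriuretic peptides are usually read, changed in part. Of 20 tested, 2 rose and 0 fell in caPI3K against NTG, 4 rose and 0 fell in dnPI3K against NTG, and 1 was higher and 3 lower in caPI3K against dnPI3K. Over all 7484 genes the counts were 5 and 3, 75 and 91, and 139 and 120 in the same order. Beta-myosin heavy chain (Myh7) read 11309, 11146 and 11187 in NTG, and rose in both transgenic groups, by 1.42 ± 0.134 in dnPI3K (adjusted p = 0.000574) and by 1.03 ± 0.134 in caPI3K (adjusted p = 0.0255). Its difference between caPI3K and dnPI3K was -0.39 (adjusted p = 0.160). These Myh7 values are those of its brightest probe set. Another, far dimmer one read 71.4 to 213.1 in caPI3K, 46.4 to 82.2 in NTG and 207.4 to 319.4 in dnPI3K. On that probe set the caPI3K arrays overlapped the NTG arrays. Skeletal alpha-actin (Acta1) rose in caPI3K (1.19 ± 0.155, adjusted p = 0.0255) and was -0.07 in dnPI3K (adjusted p = 0.894). Beta-tropomyosin (Tpm2) and the matricellular factor gene Ccn2 had the order of the peptides, with group means of 357.4, 409.5 and 1264 and of 1178, 1659 and 4336 in caPI3K, NTG and dnPI3K. They were lower in caPI3K than in dnPI3K by -1.84 and -1.89 (adjusted p = 0.00119 and 0.000759), and higher in dnPI3K than in NTG by 1.66 and 1.38 (0.00395 and 0.00723). Another, dim probe set of Tpm2 gave 0.95 for caPI3K against dnPI3K (adjusted p = 0.252). Smooth muscle actin (Acta2) gave -1.56 (adjusted p = 0.00113) and 0.997 (adjusted p = 0.0176) in these comparisons, the latter not past the threshold without dnPI3K replicate 1 or 3 or NTG replicate 2 (adjusted p = 0.0633 to 0.0715). In caPI3K against NTG, Acta1 kept its call only without dnPI3K replicate 1, dnPI3K replicate 2 or NTG replicate 1, and Myh7 only without caPI3K replicate 1, dnPI3K replicate 1 or NTG replicate 1. With any 1 of the other arrays left out, the adjusted p was 0.0556 to 0.191.

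Among 7484 genes, those whose log2 values over the 9 arrays were most like Nppa were Timp2 (r = 0.958), Gfpt2 (0.940), Anapc5 (0.929), Tpm2 (0.920) and Sh3bp5 (0.916). Timp2 encodes an inhibitor of matrix metalloproteinases and Gfpt2 an enzyme of hexosamine synthesis. Timp2 read 482.1 ± 29.4 in caPI3K, 572.2 ± 126 in NTG and 726.1 ± 39.0 in dnPI3K (n = 3 each) and did not pass between caPI3K and dnPI3K (-0.59, adjusted p = 0.0957). By deviations from the group means, which leave out the differences between groups, the closest were Clta (0.978), Dkk3 (0.977), Cplx1 (0.974), Stard10 (0.965) and Gfpt2 (0.965). Myl4 ranked 11 and Myl7 69. These are r values over 9 arrays that share the normalization.

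For Nppb the nearest by log2 values were Mrpl23, a mitochondrial ribosomal protein gene (r = 0.952), Ift20 (0.941), Shmt1 (0.934), Ywhaz (0.927) and smooth muscle myosin Myh11 (0.923). By deviations from the group means they were Fxyd1, a regulator of the sodium pump (0.986), Id4 (0.959), Gm5364 (0.954), Hba-x (0.945) and Zg16 (0.938). No gene was named for both peptides. The r of Myl4 deviations with Nppb was 0.05 and that of Myl7 0.07.

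Of the 5 genes on either side of the pair, 4 were measured (Miip, Fv1, 2510039O18Rik and Agtrap), and 0 passed in any comparison. Fv1, a retroviral restriction gene, came closest, at -0.62 ± 0.162 in caPI3K against dnPI3K (adjusted p = 0.0726). Its caPI3K arrays all lay below its dnPI3K arrays, as for 12.1% of probe sets. Agtrap, which encodes a protein bound to the angiotensin receptor, was -0.04 ± 0.142 (adjusted p = 0.936), and its 95% interval of -0.35 to 0.27 did not reach the change of Nppa.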

How the data were processed

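Ventricle RNA of 9 mice was measured on 9 one-colour oligonucleotide arrays, scanned at a photomultiplier setting of 10% per the labels. The deposited table holds 1 linear intensity per probe set and array. After trimming 2% of probe sets at either end, the mean was the same on every array, so the deposited intensities had been scaled to a common level. The software and further steps are not given in the sources used here. Probe sets were named from the platform annotation, which gives 1 symbol to 10855, several to 396 and does not list 1237. Of these, 10839 matched a RefSeq gene (GRCm38.p6) by Entrez number. The files name no genome build, and coordinates and promoter sequences are RefSeq's.

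Intensities were quantile normalized, given a floor (35.3, the 20th percentile), and put on the log2 scale. Probe sets above the floor on at least 3 of 9 arrays were kept, without 66 control probe sets, which left 10645. Groups were read from the sample titles, and replicate numbers follow the order of deposition. One limma fit (limma 3.58.1, R 4.3.3, lmFit and eBayes with an intensity trend) held all 9 arrays with group as its term, and p-values were two-sided and adjusted by Benjamini-Hochberg over all probe sets (threshold 0.05). The fit was tested on simulated data with independent noise and no clusters of arrays, unlike the arrays here, so that test does not bear on the calls. Array means ± SD are of normalized intensities, SE is limma's, and the number of arrays limits the precision. The p-values of limma weigh a difference against the spread between mice within groups, moderated over all probe sets. They do not cover what else sets the dnPI3K arrays apart, such as animal numbers and control probe sets.

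Named were every probe set of Nppa, Nppb, Myl4 and Myl7, every measured gene of the peptide, receptor and processing lists, the members of 3 other pathway lists and 10 cell type marker lists that passed or had the smallest p (up to 4 each, of which some are given), the 5 genes most like each peptide by Pearson r, and the measured genes among 5 on either side. A gene was represented by its probe set of highest mean. The members and lists were chosen with earlier results of these data known. A test of the correlation of the peptides with Myl4 and Myl7 across samples was planned but is not given, since the arrays fell into separate clusters, and the r values of genes most like the peptides are descriptions. The alternatives changed normalization, floor, filter, moderation, array weights, probe sets per gene, samples in the fit, the animal number series as a block, Myl4 and Myl7 as a covariate, the 3 arrays of highest Myl4 and Myl7, and each array in turn. A fit of only the 2 groups with the Myl4 and Myl7 covariate was added after seeing the data.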

Additional observations from a re-analysis of the deposited data

Results flagged for a closer look

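Only Nppa, Nppb, Myl4 and Myl7 were searched for a difference between caPI3K and NTG that turned between the runs of animal numbers. In 3 of these genes both caPI3K arrays of the earlier run (replicates 1 and 2) lay below both NTG arrays. In the later run (replicate 3 of either group) the caPI3K array lay above the NTG array. Nppb, at -0.14 and 0.01, had overlapping arrays in the earlier run. The share of all probe sets with such a turn was not counted. The difference in the later run minus that in the earlier run was 2.87 ± 0.451 (SE, log2) for Nppa, 7.73 ± 0.550 for Myl4 and 7.46 ± 1.01 for Myl7. In limma's test of the difference itself, Myl4 passed (adjusted p = 0.00632) and Nppa and Myl7 did not (adjusted p = 0.251 each). The second number series holds 1 mouse per group, so its difference has no replicate of its own.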

How the results depend on the processing

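In caPI3K against dnPI3K all 22 alternatives kept both peptides below 0, from -3.85 to -1.96 for Nppa (adjusted p 0.000536 to 0.126) and from -0.73 to -0.46 for Nppb (0.0230 to 0.320). Nppa (-2.22) did not pass with no filter (adjusted p = 0.126), no intensity trend (0.0910) or robust moderation (0.0792). Nppb did not pass on deposited values (-0.485) or arrays scaled to the same median (-0.481), with no filter, no trend or only the 2 groups (-0.633 each), with Myl4 and Myl7 as a covariate (-0.666) or without the 3 arrays of highest Myl4 and Myl7 (-0.681). Leaving out 1 array gave -2.60 to -1.96 for Nppa and -0.727 to -0.459 for Nppb. In dnPI3K against NTG, Nppa was above 0 in all 22 (adjusted p 0.00873 to 0.330) and passed with the covariate (3.42) and without those 3 arrays (2.59). The covariate of dnPI3K arrays (4.997 to 6.39) does not overlap that of the others (8.05 to 12.79), so that value is an extrapolation. Leaving out 1 array gave 0.917 to 1.98 for Nppa and 0.437 to 0.602 for Nppb, whose adjusted p was 0.0321 to 0.503. In caPI3K against NTG no alternative passed (adjusted p 0.416 or more for Nppa, 0.781 or more for Nppb). Signs turned for Nppa without the 3 arrays (0.0141) and for Nppb with the same median (0.0148) and without caPI3K replicate 2 (0.0910). Leaving out 1 array gave -1.30 to -0.231 and -0.195 to 0.0910.

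In caPI3K against NTG 9 probe sets were called in all (734 at an unadjusted p under 0.05), and the count was 1 with no filter, no trend, the covariate or the 3 arrays left out, 0 with only the 2 groups, also with the covariate, and 0 to 20 without 1 array. For dnPI3K against NTG, 232 became 138 with no filter, 94 with no trend, 94 with the 2 groups, 7 with the covariate, 27 without the 3 arrays and 82 to 235 without 1 array. For caPI3K against dnPI3K, 345 became 219 with no filter, 151 with no trend, 527 with array weights, 39 with the covariate and 134 to 435 without 1 array. In dnPI3K against NTG, 108 were higher and 124 lower, or 135 and 93 with arrays scaled to the same median. The causes were not tested. With the run of animal numbers as a block in caPI3K against NTG, 8 probe sets were called and the adjusted p was 0.787 for Nppa and 0.933 for Nppb. Beyond this block no paired analysis was possible because the labels pair no single animals and dnPI3K shares no run of numbers.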

Other observations

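Markers of other cell types gave these counts. Of all 7484 genes, 75 rose and 91 fell in dnPI3K against NTG, and 139 were higher and 120 lower in caPI3K than in dnPI3K. Among 9 skeletal muscle markers tested, the fast light chain gene Myl1 and the calcium store gene Casq1 fell in dnPI3K against NTG (-2.02, adjusted p = 0.00325, and -1.84, adjusted p = 0.00272). They were higher in caPI3K than in dnPI3K by 3.22 and 2.68 (adjusted p = 0.000122 and 0.000143). Of 4 smooth muscle markers, Myh11 and Acta2 were lower in caPI3K than in dnPI3K, Myh11 by -1.20 (adjusted p = 0.0334). Without caPI3K replicate 2 or 3 or any 1 dnPI3K array, Myh11 did not pass (adjusted p = 0.0712 to 0.107). Of 9 fibroblast markers by their brightest probe sets, the collagen receptor Ddr2 fell in dnPI3K against NTG (-1.06, adjusted p = 0.00947) and was higher in caPI3K than in dnPI3K (1.04, adjusted p = 0.00744). Col1a1, a collagen chain, was also higher (0.99, adjusted p = 0.0180), but not past the threshold without caPI3K replicate 1 or 2 or dnPI3K replicate 2 (adjusted p = 0.0742 to 0.0841). In dnPI3K against NTG this probe set of Col1a1 gave -0.44 (adjusted p = 0.316), and another one fell (-0.89, adjusted p = 0.0171). A dimmer probe set of Col3a1 fell too (-1.07, adjusted p = 0.0496), while its other ones gave -0.62 and -0.30 and did not pass. The Col1a1 and Col3a1 probe sets that fell were also higher in caPI3K than in dnPI3K (1.07 and 1.02, adjusted p = 0.00444 and 0.0471). The ventricular cofactor gene Fhl2 was higher in caPI3K than in dnPI3K by 0.60 (adjusted p = 0.00337).

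None of the 5 conduction system, 10 endothelial, 9 blood and immune, 4 lung or 6 fat and epicardium markers tested passed in any comparison. Of the genes most like Nppb, Mrpl23 was lower in caPI3K than in dnPI3K (-0.35, adjusted p = 0.0453), and of those most like Nppa, Sh3bp5 was (-1.01, adjusted p = 0.0417). Each kept its call only without NTG replicate 3 among the fits that left out 1 array. Both genes were picked for their likeness to a peptide over these same 9 arrays, so their differences are no separate result.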
